A study of Bos taurus
Mus musculus with 10 samples.

Results

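The mouse feeder genes Lrrc17, Cadps, Robo2, Siglecg, Sh2d5, Tppp3 and Tppp are described here, 7 of the 31349 genes in the mouse table. They were picked because their levels differed strongly, or in the same direction in every line, between wells without and with IWR-1. The values of that contrast chose them and are therefore given as a description, with no test. The deposited table lists NCBI gene IDs without names. The names used are those listed with the IDs when the genes were selected: Lrrc17 is ‘74511’, Cadps ‘27062’, Robo2 ‘268902’, Siglecg ‘243958’, Sh2d5 ‘230863’, Tppp3 ‘67971’ and Tppp ‘72948’. No mouse annotation was used here, so no positions are given.

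Each of 10 wells held bovine embryonic stem cells (bESC) on mouse embryonic fibroblasts (MEF), the feeder cells that support them. In the IWRR group, 5 wells were kept for 1 day in medium from which IWR-1 had been removed. In the IWR group, 5 wells received the complete medium with 2.5 µM IWR-1. All wells held wild-type cells in mTeSR1 medium, and lines bESC1, bESC2, bESC4, bESC8 and bESC11, derived from day 7.5 blastocysts, each gave 1 well per medium. The feeders came from E13.5 fetuses of CD-1 mice, an outbred stock, and their growth had been stopped with mitomycin C. Whether all lines stood on the same batch of feeders was not given in the sources used here. All cultures had been maintained with IWR-1 before the experiment, so the comparison is of 1 day of removal with continued exposure. Lists of 5 values below follow the lines in the order 1, 2, 4, 8 and 11.

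IWR-1 inhibits tankyrases, which stabilises AXIN and damps signalling through beta-catenin, so that its removal releases a brake on the Wnt pathway. Embryonic fibroblasts are matrix-producing mesenchymal cells that can respond to Wnt signals themselves. The 7 genes do not form a pathway. LRRC17 is a secreted protein with leucine-rich repeats. ROBO2 is a receptor of SLIT guidance proteins. The protein encoded by Cadps, CAPS1, prepares dense-core vesicles for release. Siglec-G is a sialic acid-binding lectin known mainly as an inhibitory receptor of mouse B cells. SH2D5 is an adaptor with an SH2 domain. TPPP and TPPP3 are related proteins that bind and bundle microtubules.

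Mouse genes had 17101894 to 35223039 reads per well and bovine genes 48064953 to 64345738. Mouse genes took 21.2% to 41.4% of all counted reads in wells without IWR-1 and 23.4% to 42.3% in wells with it. In every line the share was lower without IWR-1, with means of 26.8% and 30.4%. Whether this shift bears on the levels below was not tested. Line 4 stood apart in both media, with the highest mouse share. In such bulk samples, fewer cells of a type and less RNA per cell cannot be told apart. The levels below are normalised read counts, that is, reads divided by 1 factor per library, which the authors set separately for each species.

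Of the secreted and membrane genes, Lrrc17 had the highest counts. It stood at 885, 984, 2602, 403 and 495 normalised reads without IWR-1, against 379.7, 291, 939, 114 and 161 with it. In every line the well without IWR-1 was the higher, by 2.33-fold in line 1 to 3.52-fold in line 8. The groups overlapped because the lines differed so much. Only the wells of lines 2 and 4 without IWR-1 lay above every well with it. The mean level was 1074 ± 889 without IWR-1 and 377 ± 331 with it (SD, n = 5 each). The within-line difference of log2(value + 1), which is on another scale than these levels, was 1.57 ± 0.24 (SD, n = 5 lines).

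Cadps had the largest upward difference of the 7. It reached 298, 234, 733, 41.1 and 64.8 normalised reads without IWR-1, against 60.8, 62.9, 236, 12.4 and 17.9 with it. The ratio of the 2 wells ran from 3.11 in line 4 to 4.90 in line 1, and the mean log2 difference was 1.85 ± 0.26 (SD, n = 5 lines). Lines 8 and 11 were low in both media and line 4 was high in both, so the groups overlapped. CAPS1 is known from neurons and endocrine cells, where it acts just before vesicle fusion. In line 8 with IWR-1 the level rested on 12 reads, with a 95% exact Poisson interval of 6.20 to 21.0 reads. Such intervals cover counting error only.

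The guidance receptor gene Robo2 had a smaller difference. Its levels were 537, 496, 1170.5, 171 and 129.6 normalised reads without IWR-1, against 251, 216, 589.97, 103 and 55.2 with it. Every line was higher without IWR-1, by a mean log2 difference of 1.04 ± 0.20 (SD, n = 5 lines), and 1.66-fold in line 8 was the least. The wells again overlapped, since only line 4 without IWR-1 exceeded all wells with it.

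Siglecg was measured at low counts. The wells without IWR-1 had 24.6, 47.4, 57.7, 37.5 and 128 normalised reads, against 4.51, 19.7, 20.5, 10.3 and 35.1 with it. Behind these stood 20 to 130 reads without IWR-1 and 4 to 49 with it. The difference on the log2 scale was 1.70 ± 0.38 (SD, n = 5 lines), from 1.23 in line 2 to 2.22 in line 1. Line 1 had the lowest counts, and its 4 reads with IWR-1 carry a 95% exact Poisson interval of 1.09 to 10.2. Without IWR-1, 4 of 5 wells lay above every well with it, and line 1 was the exception. The pseudocount of 1 slightly understates the difference of so low a gene.

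**Figure D1:**
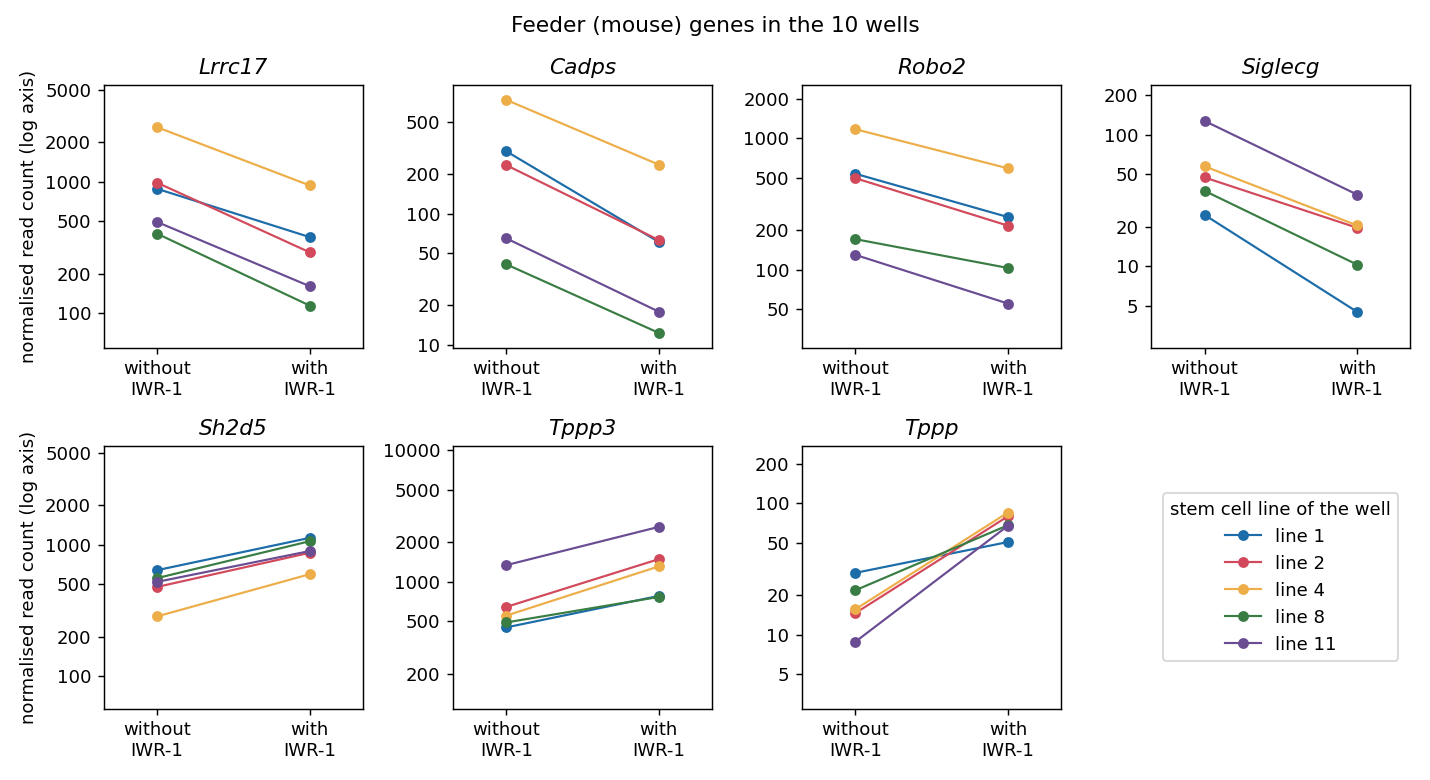
Normalised read counts of the 7 feeder genes (log axes, each spanning the same 100-fold range) in wells without and with IWR-1, with a line joining the 2 wells of each stem cell line. Lrrc17, Cadps, Robo2 and Siglecg were higher without IWR-1 in all 5 lines and Sh2d5, Tppp3 and Tppp were lower in all 5; only for Tppp did the 2 groups of wells not overlap.

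Sh2d5, Tppp3 and Tppp were lower without IWR-1, and of these Sh2d5 was the most even. It had 641, 478, 285, 558 and 522 normalised reads without IWR-1, against 1129, 869.7, 597, 1065 and 896 with it. The mean was 497 ± 133 without IWR-1 and 911 ± 207 with it (SD, n = 5 each). On the log2 scale the difference was -0.89 ± 0.11 (SD, n = 5 lines), the smallest spread of the 7. Line 4 was lowest in both media, and its well with IWR-1 lay below the line 1 well without it, which was the overlap between the groups. SH2D5 is best known from brain, where it binds the Rac-regulating protein BCR.

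Both microtubule genes were lower as well. Tppp3, which in the mouse marks cells of the tendon sheath, stood at 450.4, 645, 554, 491 and 1340.4 normalised reads without IWR-1, against 782, 1489, 1312, 768 and 2620.4 with it. The log2 difference was -0.97 ± 0.26 (SD, n = 5 lines). Line 11 was the highest in both media, and its well without IWR-1 exceeded the wells of lines 1, 4 and 8 with IWR-1. The other 4 wells without IWR-1 lay below every well with it.

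Its relative Tppp, known for its role in myelin-forming oligodendrocytes, had few reads. Without IWR-1 it was at 29.5, 14.6, 15.6, 21.8 and 8.84 normalised reads, against 50.7, 79.6, 85.0, 68.0 and 67.4 with it. Here every well without IWR-1 lay below every well with it. The mean was 18.1 ± 7.88 without IWR-1 and 70.1 ± 13.2 with it (SD, n = 5 each), and the log2 difference was -1.98 ± 0.81 (SD, n = 5 lines). The size varied most among the 7 genes, from -0.76 in line 1 to -2.80 in line 11, where the level without IWR-1 rested on 9 reads (95% exact Poisson interval 4.12 to 17.1).

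These 7 can be placed among the 15871 mouse genes that had at least 10 normalised reads in at least 5 wells, a filter all 7 passed. By mean log2 difference, 2 genes were further up than Cadps, 3 than Siglecg, 6 than Lrrc17 and 46 than Robo2. Downward, 2 genes exceeded Tppp, 84 exceeded Tppp3 and 124 exceeded Sh2d5. Ranked by the mean difference over its SD between lines, 15 genes were ahead of Sh2d5, 21 ahead of Cadps, 25 ahead of Lrrc17 and 53 ahead of Robo2. For Siglecg that number was 90, for Tppp3 147 and for Tppp 481. Cadps, Siglecg, Lrrc17 and Tppp lay near the ends by the first set of ranks, and Sh2d5 had the best rank of the 7 by the second. Both sets use the contrast that chose the genes, so they restate the choice and nothing is read from them.

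Each of the 7 had the same sign in 5 of 5 lines, as did 15.7% of the 15871 genes (7.83% higher and 7.83% lower without IWR-1). Groups that did not overlap were found for 1 of the 7, in the downward direction, and for 0.554% of all genes (0.258% higher and 0.296% lower). Because the genes were chosen on this contrast, nothing is read from these counts. Across the whole mouse table, limma with the medium as its only term called 0 of the 15871 genes at a Benjamini-Hochberg adjusted p under 0.05, with 584 genes, or 3.68%, at an unadjusted p under 0.05. edgeR called 0 and DESeq2 15, or 0.0945%, in that design. With the line as a block, limma called 665 genes, or 4.19%, of which 340 (2.14%) were higher and 325 (2.05%) lower without IWR-1. edgeR with the block called 4.58% and DESeq2 5.7%. The limma fit with the block gave 270 calls without line 11, 283 without line 4 and 319 without line 1. It gave more calls than the full fit without line 2, at 772, and without line 8, at 935. The cultures were split by line, so the block compares the 2 wells of 1 line.

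**Figure D2:**
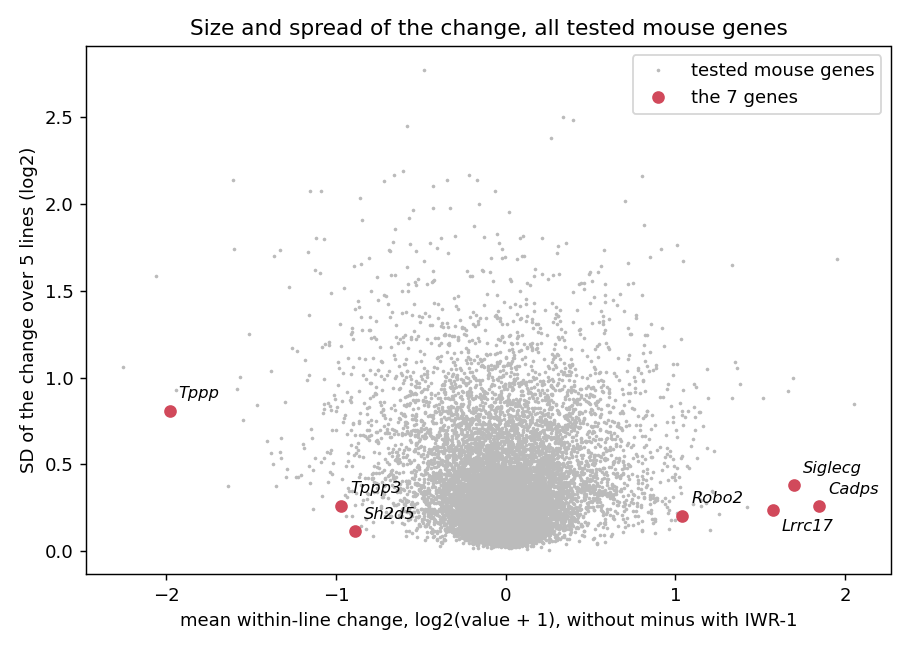
Mean within-line change in log2(value + 1), without minus with IWR-1 (horizontal), against its SD over the 5 lines (vertical) for the 15871 tested mouse genes (grey) and the 7 genes (red). Sh2d5 has the smallest spread of the 7 and Tppp the largest, 0.81, while Cadps has the largest upward mean, 1.85.

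Differences between lines were the other large source of variation. They did not choose the genes, but the spread within lines against which they are set did. Lrrc17, Cadps and Robo2 shared a profile. All were highest in line 4, intermediate in lines 1 and 2 and lowest in lines 8 and 11, in both media. The highest well exceeded the lowest by 17.8-fold for Cadps without IWR-1 and 19.1-fold with it. For Robo2 these ratios were 9.03 and 10.7, and for Lrrc17 6.46 and 8.21. Averaged over both media, Cadps was at 484 normalised reads in line 4, at 179 and 148 in lines 1 and 2, and at 26.8 and 41.4 in lines 8 and 11. Lines 1 and 2 exchanged places between media for Lrrc17 and Cadps and thus could not be ordered. Line 4 also had the highest mouse share of reads, 41.4% without IWR-1 and 42.3% with it. Line 11 had the next highest share, 26.6% and 33.3%, and was among the 2 lowest lines for these 3 genes. The part of the mouse share in the levels was not tested.

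Siglecg and Tppp3 followed another order. Both peaked in line 11 in either medium. Siglecg averaged 81.4 normalised reads over the 2 media there, against 14.6 in line 1, its lowest line. Tppp3 averaged 1980.4 in line 11, against 616 in line 1 and 630 in line 8, which changed places between media. Sh2d5 ran from 885 in line 1 to 441 in line 4. Averaged over the 2 media, Tppp was the flattest, between 38.1 and 50.3 normalised reads, but its line order differed between media. Without IWR-1 its highest well exceeded its lowest by 3.34-fold, more than for Sh2d5 (2.25-fold) and Tppp3 (2.98-fold). With IWR-1 this ratio was 1.68 for Tppp, the smallest among the feeder genes described.

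**Figure D3:**
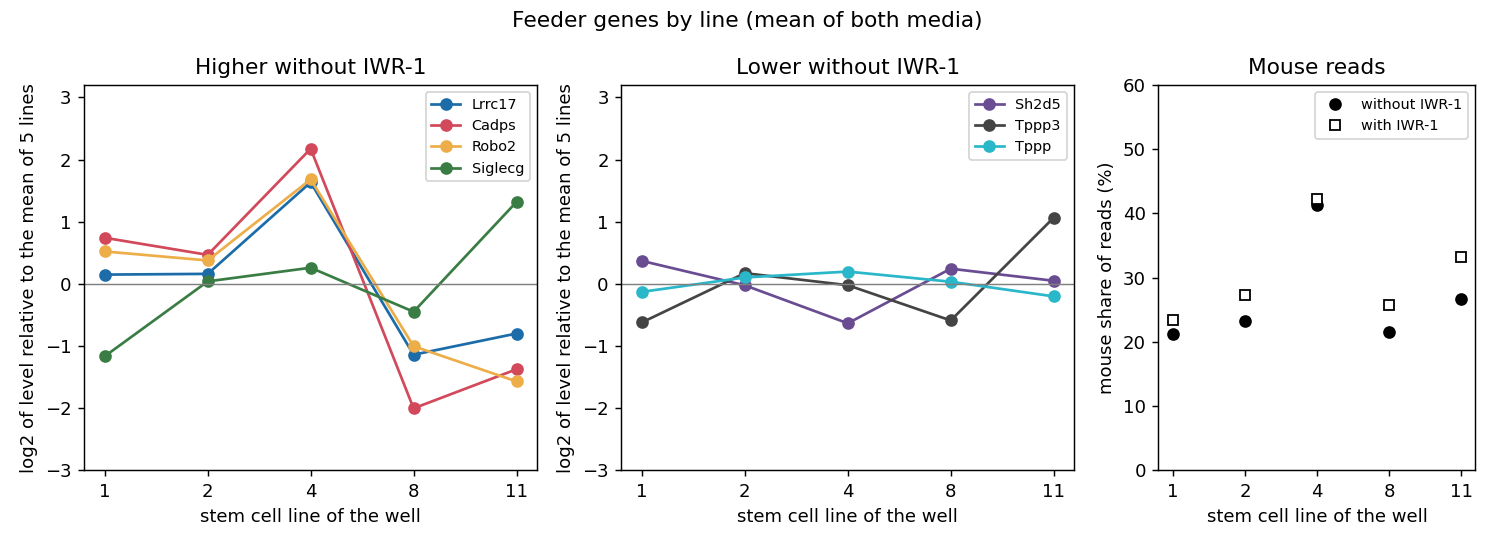
Left and middle, level of each feeder gene per line (mean of both media) as log2 relative to its mean over the 5 lines; right, share of counted reads on mouse genes in percent. Lrrc17, Cadps and Robo2 peak in line 4, whose mouse shares are 41.4% without and 42.3% with IWR-1, and Siglecg and Tppp3 peak in line 11.

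A limma F-test over the lines, with the medium as a further term, called 6 of the 7 genes, all but Tppp (adjusted p = 0.702), where 35.1% of tested mouse genes were called. Genes picked for even changes within lines have a small error in that test, so nothing is read from the count. Sh2d5 lost its call without line 4 (adjusted p = 0.0782) and Siglecg without line 11 (adjusted p = 0.0600).

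Likeness between genes was measured as Pearson's r of log2(value + 1) over the 10 wells, a description in which the wells share lines and media. This r includes the difference between media that chose the genes, which raises it for members that change in the same direction. Nothing is therefore read from its ranks. For Lrrc17, no other of 12496 compared mouse genes had a higher r than Cadps, at 0.977, and the same held for Cadps with Lrrc17. Robo2 had r = 0.954 with Cadps, where 15 genes were higher, and 0.920 with Lrrc17, where 51 were. The genes between these could not be named. When the mean of each medium was subtracted first, so that the difference between media no longer entered, Lrrc17 and Cadps had r = 0.974, where 1 gene was closer to Lrrc17 and 5 were closer to Cadps. Siglecg and Tppp3, which differed between media in opposite directions, had r = 0.07 over the wells as measured. After that subtraction they had r = 0.920, where 53 genes were closer to Siglecg and 53 were closer to Tppp3. Sh2d5 and Tppp went the other way, with 0.718 as measured and 0.03 after it.

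The stem cells of the same wells offered a separate measurement that had no part in choosing the genes. The bovine table held a gene of the same name for 6 of the 7. It held no gene named for Siglecg, and SIGLEC10, the name of its human counterpart, was used instead. All 7 bovine genes passed the filter in the 18506 genes tested. Of these 7 counterparts, limma called 0 with the medium alone (0 at an unadjusted p under 0.05) and 0 with the line as a block (1 at an unadjusted p under 0.05). Over the whole bovine table, limma called 0 genes with the medium alone (0.567% at an unadjusted p under 0.05) and 0.951% with the block (10.1% at an unadjusted p under 0.05). edgeR and DESeq2 also called 0 of the 7, with and without the block. Of all bovine genes, edgeR called 0 without the block and 1.03% with it, and DESeq2 0.0108% without and 2.28% with it.

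Bovine CADPS had the narrowest interval of the 7 in the block fit, and TPPP in the fit without it (-0.30 to 0.44). CADPS had 1049, 1218, 723, 918 and 796 normalised reads without IWR-1, against 1029, 1108, 723, 869.5 and 677 with it. The log2 difference was 0.09, with a 95% interval of -0.06 to 0.25 in the limma fit with the block (adjusted p = 0.767), beside the mean difference of 1.85 in feeder Cadps. ROBO2 had a difference of -0.20, with an interval of -0.40 to 0.01, beside 1.04 in the feeders. TPPP had 0.07, with -0.10 to 0.24, beside -1.98 in the feeders. SIGLEC10 had 0.01, with -0.20 to 0.22, and LRRC17 had -0.13, with -0.59 to 0.33. TPPP3 had -0.14, with -0.44 to 0.17. None of these intervals reached the mean difference of the feeder gene, but the feeder values chose the genes and the difference between species was not tested. Without the block the intervals were wider, up to -1.35 to 1.09 for LRRC17, and that of TPPP3, -1.08 to 0.80, included the feeder mean of -0.97.

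SH2D5 was the bovine gene with the smallest p. Its levels were 1535, 628, 1282, 876 and 895 normalised reads without IWR-1, against 1256, 744, 931, 657 and 673 with it. Lines 1, 4, 8 and 11 were higher without IWR-1 and line 2 was lower. The log2 difference was 0.27, with a 95% interval of 0.04 to 0.49 in the block fit and an adjusted p of 0.396 in limma. In the planned fit, without the block, the interval was -0.31 to 0.84. Without line 2, the line of opposite sign, the difference was 0.39 and was called in the block fit (limma adjusted p = 0.0305). That fit called 185 bovine genes. Without line 1, 4, 8 or 11 SH2D5 was not called in the block fit (limma adjusted p = 0.674, 0.708, 0.499 and 0.864). Its sign was opposite to that of feeder Sh2d5.

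**Figure D4:**
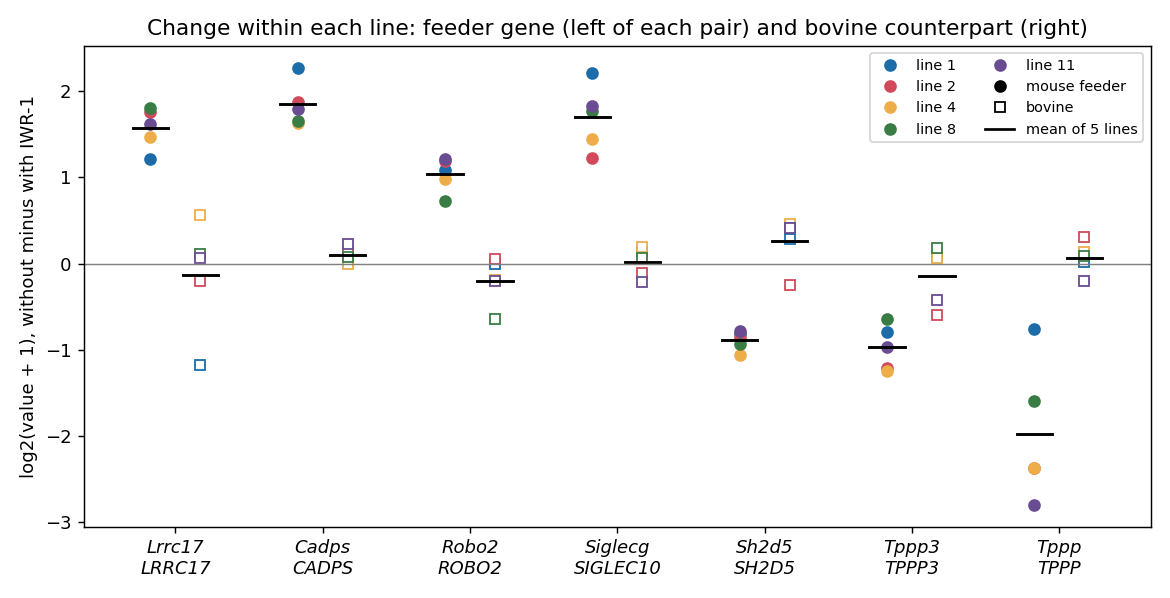
Change within each line in log2(value + 1), without minus with IWR-1, for each feeder gene (filled circles) and its bovine counterpart (open squares), coloured by line, with black bars for the mean of 5 lines. The feeder values lie to 1 side of 0 for every gene, and the bovine means lie between -0.20 and 0.27.

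The bovine genes also differed between lines, and here the test was independent of the choice. The limma F-test over lines called 7 of 7, with adjusted p from 0.000255 for TPPP3 to 0.00562 for ROBO2, where 66.5% of bovine genes were called. Their orders were not those of the feeder genes. CADPS was lowest in line 4 without IWR-1, at 723 normalised reads, where feeder Cadps was highest. TPPP3 peaked in line 8, at 482 without IWR-1 and 425 with it, whereas feeder Tppp3 peaked in line 11. The top line was shared in both media for 3 of the 7, line 4 for LRRC17 and ROBO2 and line 1 for SH2D5.

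**Figure D5:**
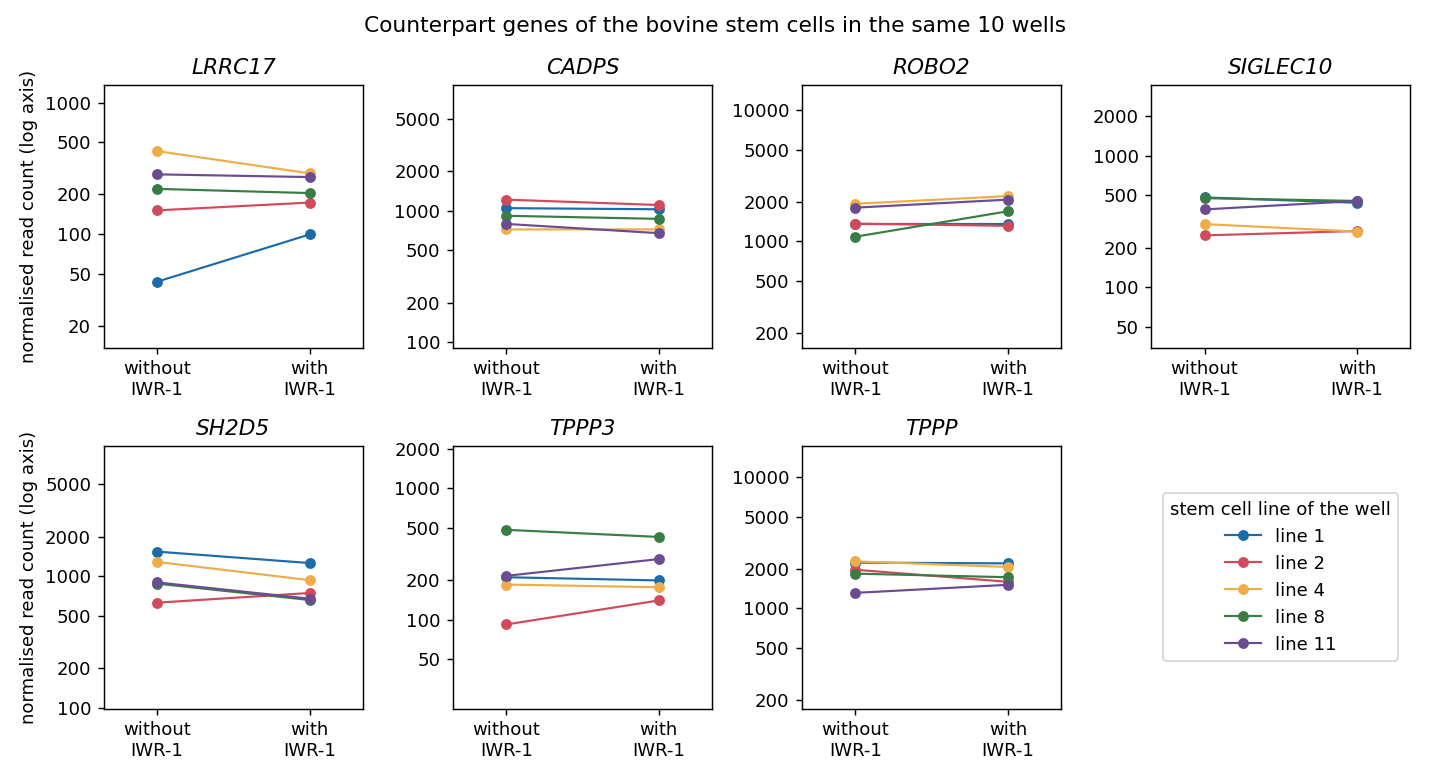
Normalised read counts of the 7 bovine counterpart genes (log axes, each spanning a 100-fold range) in wells without and with IWR-1, with a line joining the 2 wells of each stem cell line. The 2 groups overlap for all 7 genes, and CADPS in line 4 is at 723 normalised reads in both media; the steepest lines are line 1 for LRRC17 (43.4 without and 99.2 with IWR-1) and line 8 for ROBO2 (1086 without and 1696 with it).

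The treatment of reads that match both species was not given in the sources used here, so the 2 counts were set side by side. Feeder Cadps had its lowest ratio, 1.28%, in line 8 with IWR-1, with 12 reads beside 939 of bovine CADPS in the same well. For Tppp the lowest ratio was 0.635%, with 12 mouse reads and 1889 bovine reads in line 2 without IWR-1. For Robo2 it was 3.60%, with 77 and 2141 reads in line 11 with IWR-1. For Siglecg against SIGLEC10 it was 0.922%. The highest ratios of these genes were 194.9% for Cadps, 116.4% for Robo2, 36.6% for Siglecg and 8.11% for Tppp. The mouse counts of Lrrc17 were 50.2% to 1634% of the bovine counts, those of Sh2d5 33.4% to 180.2% and those of Tppp3 76.5% to 1471%.

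Relatives and partners of the 7 genes could be named in the bovine table only. The lists leave out the counterparts themselves, and the calls are those of limma with the line as a block; without the block, limma called none of the listed genes and none had an unadjusted p under 0.05. Of 11 tested genes of SLIT-ROBO guidance 0 were called (4 at an unadjusted p under 0.05, 0 by edgeR and 1 by DESeq2), and 5 were positive. The ligand gene SLIT2 was at 0.35 ± 0.08 on the log2 scale (SE, limma adjusted p = 0.0827), positive in 5 of 5 lines. Genes named from the lists were picked for a small p in the block fit, which favours agreement between lines. Nothing is therefore read from that agreement. The median of the list was -0.01, and that of all 18506 genes was -0.00463, with 48.4% of them positive. Of 17 microtubule regulators 0 were called (2 at an unadjusted p under 0.05, 0 by edgeR and 1 by DESeq2). MAPRE3, which encodes a protein that binds growing microtubule ends, was at -0.46 ± 0.11 (SE, limma adjusted p = 0.101) and was lower in 5 of 5 lines. In that list 7 were positive and the median was -0.02.

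Of 24 tested genes of regulated exocytosis 0 were called (6 at an unadjusted p under 0.05, 0 by edgeR and DESeq2), 8 were positive and the median was -0.09. The granin family gene SCG3 was at -0.62 ± 0.20 (SE, limma adjusted p = 0.255) and was lower in 5 of 5 lines. Of 14 bone and small leucine-rich genes 0 were called (2 at an unadjusted p under 0.05, 0 by edgeR and DESeq2), with 8 positive and a median of 0.16. TNFSF11, which encodes the osteoclast factor RANKL, was at -0.38 ± 0.15 (SE). Of 9 SH2D adaptor and BCR genes 0 were called (1 at an unadjusted p under 0.05, 0 by edgeR and 1 by DESeq2), with 5 positive and a median of 0.02. SH2D6 was at -0.91 ± 0.21 (SE, limma adjusted p = 0.0942). One lectin gene was tested, SIGLEC1, a macrophage receptor gene, at 0.16 ± 0.19 (SE), and was not called.

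Wnt targets and cell type markers made up the remaining lists. Of 14 Wnt targets 5 rose and 0 fell in the block fit, with 14 positive and a median of 0.61, among them CCND1, which encodes cyclin D1, at 1.15 ± 0.12 (SE, limma adjusted p = 0.0027). Of 16 fibroblast markers 0 were called (6 at an unadjusted p under 0.05, 0 by edgeR and 3 by DESeq2), with 11 positive and a median of 0.12. Of 7 immune markers 0 were called (2 at an unadjusted p under 0.05, 0 by edgeR and DESeq2), 1 was positive and the median was -0.20, with the B cell gene CD79A at -0.42 ± 0.16 (SE). Of 6 glia markers 0 were called (2 at an unadjusted p under 0.05, 0 by edgeR and DESeq2), with 4 positive and a median of 0.02. Of 11 neuron markers 1 rose, the neurofilament gene NEFM (0.33 ± 0.06 SE), but 3 were positive and the median was -0.05. Of 4 muscle markers 1 rose, the cardiac actin gene ACTC1 (0.77 ± 0.11 SE), and the other 3 were negative, with a median of -0.07. Of 5 endothelial markers 1 rose, the receptor gene TEK (0.59 ± 0.11 SE), with 3 positive and a median of 0.28. Of 4 epithelial markers 2 rose, the simple keratin genes KRT8 and KRT18, which were also the 2 positive ones, with a median of 0.38. In the block fit, 0.886% of all bovine genes were called higher without IWR-1 and 0.0648% lower. The same markers in the feeders were not analysed here, so the fibroblast label of the mouse cells was not checked.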

How the data were processed

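Per the labels' protocols, poly(A) RNA from 10 wells was made into libraries with the NEBNext Ultra RNA reagents. Reads were mapped to ARS-UCD1.3 and to GRCm39, per the labels. Tools named in the submitters' processing notes, with no roles, are featureCounts 1.5.0-p3, HISAT2 2.0.5, fastp and StringTie 1.3.3b. Use of strand in the counting was not given in the sources used here. One table of normalised signal per species was deposited by the authors. In every library all positive values (100% at a tolerance of 0.01 reads) were whole multiples of 1 step, which gave whole reads. In the mouse table, 2 columns matched no labelled sample and were left aside.

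The members, their names and the lists were chosen with earlier results of these data known. limma 3.58.1 (R 4.3.3, intensity trend) was fitted on log2(value + 1) to all genes that reached a value of 10 in 5 or more wells. Calls needed a Benjamini-Hochberg adjusted p under 0.05. The fit without a block was the planned one, and edgeR 4.0.16 (TMM) and DESeq2 1.42.0 on recovered reads were alternatives. The labels give 1 cell line for the 2 wells that share a number, so the numbers pair them. Within pairs, deviations from the group means had correlations of 0.488 to 0.725 (mouse) and 0.617 to 0.883 (bovine). Wells are single cultures, so p-values of the fit without a block measure the spread between wells, lines included. Those of the block fit measure the spread of the within-line differences. The limma fits were also run on simulated counts with a fixed dispersion and a planted fold that was the same in every line. Real changes varied between lines, so that run does not vouch for the calls given here. A RefSeq gene list of ARS-UCD2.0 named 24660 of 27590 bovine IDs and 0 of 31349 mouse IDs, so the lists planned for the mouse table were counted in the bovine table, a change made after the data were seen. Named genes are the 7 members, their bovine counterparts and, from each list, genes among the 4 with the smallest p in the block fit. The genes most like a member could be named only where they were members, and those were compared among genes with a mean value of at least 50.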

Additional observations from a re-analysis of the deposited data

Results flagged for a closer look

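In each group of 5 wells, and in each set of 5 within-line differences, the gap between the extreme value and its neighbour was set against the whole range; 42 sets of 5 values were tested, and 4 passed the critical ratio of 0.71. For independent, normally distributed values chance gives about 1 in 20. The sets here share wells and include levels not on a log scale and differences that chose the genes, so that rate does not apply. Feeder Lrrc17 without IWR-1 was at 2602 normalised reads in line 4, against 403 to 984 in the other lines. Feeder Cadps with IWR-1 was at 236 in line 4, against 12.4 to 62.9. Feeder Tppp3 without IWR-1 was at 1340.4 in line 11, against 450.4 to 645. Bovine SH2D5 differed by -0.24 between media in line 2 on the log2 scale, against 0.29 to 0.46 in the other lines.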

How the results depend on the processing

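With a pseudocount of 5, with the same total per well or without any 1 line, all 7 feeder genes kept their direction in every remaining line. Over these 7 alternatives the mean log2 difference ranged from 1.51 to 1.66 for Lrrc17, 1.73 to 1.90 for Cadps, 0.999 to 1.12 for Robo2, 1.44 to 1.82 for Siglecg, -0.92 to -0.85 for Sh2d5, -1.05 to -0.90 for Tppp3 and -2.28 to -1.75 for Tppp. The count of called genes rests on the replicate block: 0 without it became 665 mouse and 176 bovine genes with it. With the block and without line 1, 2, 4, 8 or 11, the counts were 319, 772, 283, 935 and 270 mouse genes and 36, 185, 102, 151 and 31 bovine genes. With the block, a pseudocount of 5 gave 694 and 190, no filter gave 329 and 53, and the same total per well gave 670 and 128. These 3 combinations were chosen after seeing the data. edgeR with the block called 727 and 190, DESeq2 904 and 422, and DESeq2 without it 15 and 2. Among the bovine counterparts 0 were called, with 0 to 1 when a line was left out with the block, the 1 being SH2D5 without line 2. Bovine LRRC17 changed sign to 0.13 without line 1 (with the block) and to 0.12 with edgeR and 0.12 with DESeq2 (without it). SIGLEC10 changed sign to -0.0084 with the same total per well, with or without the block, to -0.017 without line 1 and to -0.030 without line 4, both with the block. The cause was not tested. Of the genes on the lists 0 were called without the block and 10 with it. Mouse list counts were not run. The F-test over lines called 5 or 6 of the 7 feeder genes under each alternative, and 3669 to 6462 mouse genes with 1 line left out. Depth limits Siglecg and Tppp most, with 4 to 141 reads per well.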
